A study of Mus musculus with 2 samples.

Results

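The genes described here act in DNA repair and in the response to DNA damage. They were chosen by name from the array's own gene symbols: every symbol that starts with Fanc, with Rad and a digit, with Xrcc, Ercc, Brca, Msh or Mlh and a digit, together with Atm, Atr, Chek1, Chek2, Trp53, Mdm2, Blm, Exo1, Ung, Prkdc and Lig4. The rule used no measured value. It found 59 genes on 107 probes, of 19726 named genes on 41089 probes. Atr was searched for but is not among these 59 genes. Of these symbols, 4 are old: Rad9, Rad51l1, Rad51l3 and Xrcc6bp1 are now Rad9a, Rad51b, Rad51d and Atp23. The rule also took in 4 genes that are named alike but whose products mainly act elsewhere: Rad21, Ercc6l, Rad54l2 and Xrcc6bp1.

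RNA came from bone marrow granulocytes and bone marrow monocytes, both sorted, of male C57BL/6 mice that were wild type, and each cell type was hybridised to 1 one-colour Agilent array. Sources used here do not give the sort markers and gates, the age or the number of mice. With 1 array per cell type no difference has a replicate check and no test was made, so a gene is counted by size, at least 4-fold, as a description of these 2 arrays. In sorted bulk cells, fewer cells of a type and less RNA per cell cannot be told apart.

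Cells repair DNA by several routes. Excision repair removes a damaged base or a short stretch of a strand, mismatch repair corrects copying errors behind the replication fork, and broken ends are either joined directly or copied from the sister chromatid by homologous recombination. The Fanconi anaemia pathway handles crosslinks between the strands, and checkpoint kinases and p53 hold the cell cycle or start cell death while damage persists. Homologous recombination and mismatch repair work mostly while DNA is replicated, whereas end joining and excision repair also serve cells that no longer divide. Mature granulocytes do not divide, while their bone marrow precursors and those of monocytes do.

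Each probe on the array was 60 bases long. The sequences of 6 probes are printed because the account turns on them: 3 of them, for Atm, Mdm2 and Trp53, were printed in 10 spots per array, and those for Chek2, Rad50 and Rad54l gave differences of at least 4-fold. The positions are those of the array's files in the mouse build mm8: chr9:53210457-53210516 (minus strand) for Atm, chr5:111105830-111105889 (plus strand) for Chek2, chr11:53495663-53495722 (minus strand) for Rad50, chr4:115596433-115596492 (minus strand) for Rad54l, chr10:117095662-117095721 (minus strand) for Mdm2 and chr11:69405827-69405886 (plus strand) for Trp53. The files assign each probe to the gene given, and exons, introns and UTRs were not analysed here for that build. The sequences run 5′ to 3′.
Atm: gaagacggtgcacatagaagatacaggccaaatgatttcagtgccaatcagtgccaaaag
Chek2: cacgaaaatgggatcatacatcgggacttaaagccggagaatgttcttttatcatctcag
Rad50: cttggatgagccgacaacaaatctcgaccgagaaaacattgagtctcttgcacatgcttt
Rad54l: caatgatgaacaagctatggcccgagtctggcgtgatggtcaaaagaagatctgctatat
Mdm2: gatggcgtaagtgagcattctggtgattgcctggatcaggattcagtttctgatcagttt
Trp53: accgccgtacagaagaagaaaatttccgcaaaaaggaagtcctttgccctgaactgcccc

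Signal was well above background for 63.9% of probes in granulocytes and 68.2% in monocytes. Fixed markers were set against the labels. All 12 granulocyte markers were higher in granulocytes, with log2 differences (granulocyte minus monocyte) of 1.06 to 9.65, and all 10 monocyte markers were higher in monocytes, with differences of -8.51 to -1.56. Markers of other cells also differed. Monocytes were higher by at least 4-fold for 5 of 10 markers of granulocyte and monocyte progenitors and for 6 of 9 T and NK cell markers above background, and granulocytes for 0 of either. Medians of 10 B lineage markers (1.24) and 9 erythroid markers (1.59) were higher in granulocytes, and 0 of either list differed by 4-fold.

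Most repair genes were higher in monocytes. A level is log2 of a probe's signal relative to its array's 75th percentile, and a difference is the granulocyte level minus the monocyte level, so a negative difference means higher in monocytes. Of the 59 genes, 56 were above background on both arrays, Atm was so only in monocytes, and Msh4 and Rad9b on neither. Leaving out Msh4 and Rad9b, 24 of 57 genes (42.1%) were at least 4-fold higher in monocytes, where 10.4% of all 15608 genes above background were. None was at least 4-fold higher in granulocytes (0 of 57), where 8.53% of all genes were. The median difference was -1.65, against 0.45 over all genes, and the members ranged from -4.17 to 1.89. By sign, 45 were below 0 and 12 above, whereas of all genes 5928 were below 0 and 9680 above. At 2-fold the counts were 37 higher in monocytes (20.9% of all genes) and 6 higher in granulocytes (29% of all genes), and at 8-fold they were 5 (4.27% of all genes) and 0 (3.34%).

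The size of these counts moved with the processing. Without scaling 37 members were at least 4-fold higher in monocytes (19.3% of all genes), and with normexp background correction 12 were (6% of all genes). In granulocytes 0 members were higher by that size under either setting, where 3.72% and 5.83% of all genes were. All 12 were also among the 24, and they included Ung, Xrcc6bp1, Exo1, Rad54l, Fancl, Rad51ap1, Ercc8, Ercc6l and Msh6. The 6 members at least 2-fold higher in granulocytes fell to 1 without scaling (9.87% of all genes), Lig4 at 1.02, with Mdm2 at 0.88, Rad52 at 0.54, Trp53 at 0.42, Rad51l3 at 0.41 and Rad54l2 at 0.39. With spike-in scaling 2 remained past 2-fold (14.6% of all genes), Lig4 and Mdm2. Without scaling the median over all genes was -0.42 in place of 0.45. Relative to the median of all genes the members' median was -2.10 with scaling, -2.10 without it, and -1.51 with normexp correction.

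**Figure D1:**
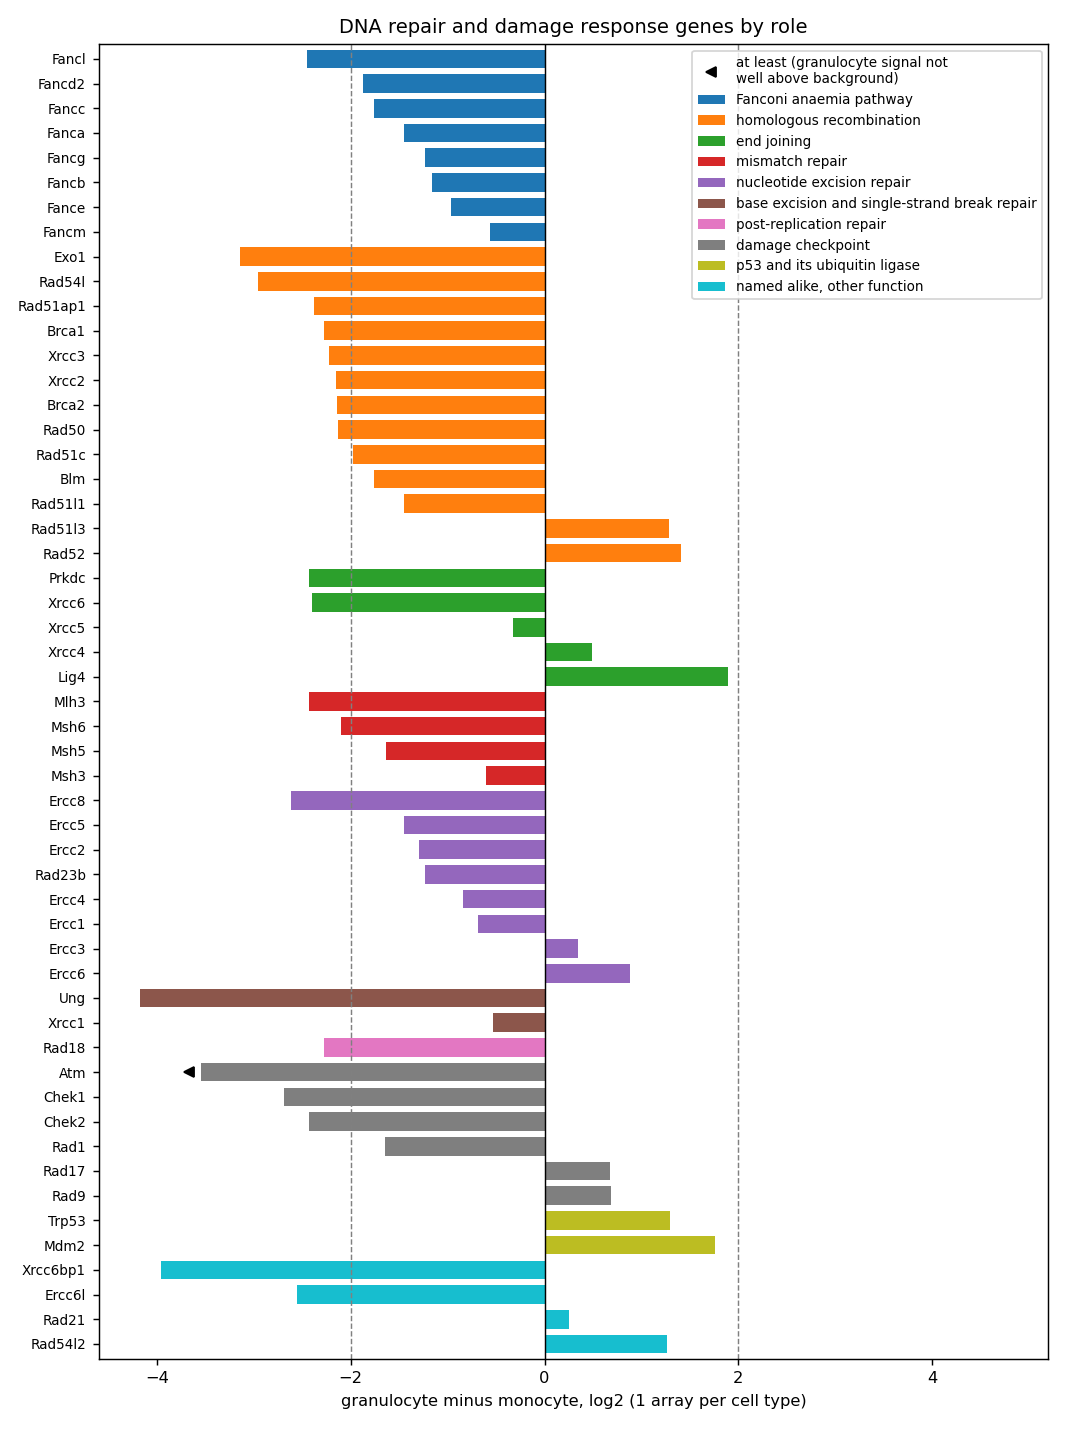
Difference between granulocytes and monocytes for 53 of the 57 members above background, in log2 units, grouped by role, with 1 bar per gene and dashed lines at 4-fold. Bars run left of 0 (higher in monocytes) for most homologous recombination genes and every mismatch repair gene drawn and right of 0 for Trp53 and Mdm2, and the arrow marks Atm as a bound.

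Homologous recombination copies a broken stretch from the sister chromatid. It had 14 genes above background, of which 9 were at least 4-fold higher in monocytes, 12 at least 2-fold higher there and 2 at least 2-fold higher in granulocytes. The median was -2.15. With normexp correction 4 passed 4-fold towards monocytes, without scaling 12 did. Exo1, an exonuclease that trims broken ends, had levels of -1.61 in granulocytes and 1.53 in monocytes, a difference of -3.15 (8.85-fold). Rad54l, a motor protein of strand invasion, stood at -1.87 and 1.08, 7.75-fold apart, with the monocyte array the higher. Both were higher on the monocyte array.

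Rad51ap1, which promotes strand exchange, was at -0.90 in granulocytes and 1.47 in monocytes (5.19-fold). Brca1, a ubiquitin ligase that favours recombination, was at -1.18 and 1.10 (4.85-fold), and Brca2, a mediator of strand exchange, at -1.72 and 0.42 (4.43-fold). The other probes of Brca1 and Brca2 were not above background in granulocytes and gave at least 3.96-fold and at least 4.06-fold. Rad50, part of the Mre11 complex that senses broken ends, was at -2.26 and -0.13 (4.39-fold). The other probe of Rad50 was not above background in granulocytes either and gave at least 1.24-fold. All 4 were again higher in monocytes. With normexp correction Brca1 (3.88-fold), Brca2 (2.99-fold) and Rad50 (2.60-fold) were under 4-fold.

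Xrcc2, Xrcc3, Rad51c, Rad51l1 and Rad51l3 are related genes whose products assist strand exchange, and they did not share one direction. Xrcc3 was at -3.69 in granulocytes and -1.46 in monocytes (4.69-fold), and Xrcc2 at -4.38 and -2.22 (4.45-fold). With normexp correction the differences were -0.95 and -0.58. Rad51c (-1.97) and Rad51l1 (-1.45) were also higher in monocytes, by less than 4-fold, as was Blm, the helicase of Bloom syndrome (-1.76). Against these, Rad51l3 was at -0.12 in granulocytes and -1.40 in monocytes, 2.43-fold higher in granulocytes, and its other probes gave 1.40 and 0.57. Rad52, which anneals single strands, was at 0.53 and -0.89, 2.66-fold higher in granulocytes, and its other probe gave 1.77. These were the only recombination genes above 0, and after scaling each had a positive sign on every probe above background on both arrays. The Rad51l3 probe with 0.57 had unscaled signals of 235 in granulocytes and 289 in monocytes, so its sign came with the scaling.

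**Figure D2:**
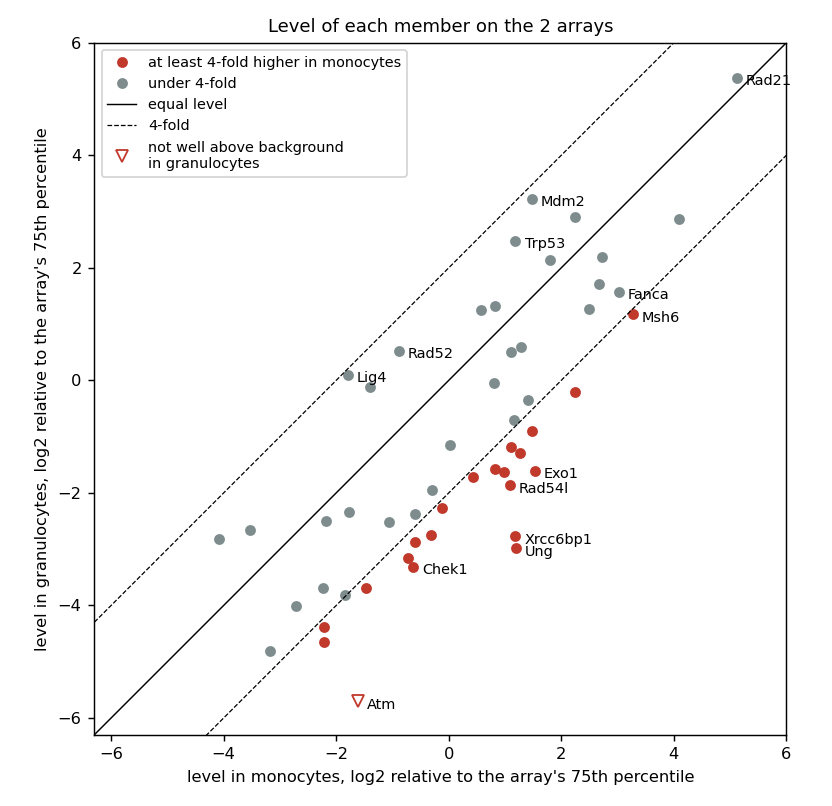
Level of each member in granulocytes (vertical) against monocytes (horizontal), both as log2 relative to the array's 75th percentile, with 1 point for each of 53 members above background. Genes at least 4-fold higher in monocytes lie beyond the lower dashed line, 0 lie beyond the upper one, and the open triangle is Atm, not well above background in granulocytes.

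Mismatch repair showed the same direction in all 6 of its genes above background: 4 were at least 4-fold higher in monocytes, 5 at least 2-fold, and the median was -2.24. With normexp correction 3 passed 4-fold and the median was -1.35. Msh6, part of the sensor of single mismatches, was at 1.17 in granulocytes and 3.27 in monocytes (4.29-fold). Msh3, part of the sensor of larger loops, was at 0.50 and 1.11, a difference of -0.60. Both were thus lower in granulocytes, Msh3 by less than 2-fold.

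Msh3 had 4 probes, and its probes did not share one direction. The other 2 that were above background on both arrays gave -0.42 and -0.66. The fourth, which the files list under a predicted transcript, was above background only in granulocytes and gave at least 2.90-fold higher there. Mlh3, a protein of mismatch repair and meiosis, was at -4.65 in granulocytes and -2.22 in monocytes (5.39-fold), and 1.56-fold higher there with normexp correction. The other probe of Mlh3 was not above background in granulocytes and gave at least 1.39-fold. Msh5, a protein of meiosis, differed by -1.63 on 1 probe, which became -0.07 with normexp correction, and by -0.14 on another. Its partner Msh4 was not above background on either array.

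In base excision repair, Ung had the largest difference of the 56 members measured on both arrays. Ung, the enzyme that removes uracil from DNA, was at -2.99 in granulocytes and 1.19 in monocytes, a difference of -4.17. Xrcc1, the scaffold for sealing single-strand breaks, was at 2.19 and 2.72, a difference of -0.53. Both genes of this route were higher in monocytes, Xrcc1 by less than 2-fold.

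Nucleotide excision repair, which cuts out bulky damage such as that of ultraviolet light, was less different: of 9 genes, 1 was at least 4-fold and 4 at least 2-fold higher in monocytes, and the median was -0.84. Without scaling 4 passed 4-fold and the median was -1.71. Ercc8, which brings repair to stalled transcription, was at -1.63 in granulocytes and 0.98 in monocytes (6.12-fold), and its other measured probe gave -3.48. Its partner Ercc6 was the other way, at -2.66 and -3.53, 0.88 higher in granulocytes, but that direction came with the scaling: without it the difference was 0.0054. The nuclease gene Ercc5 differed by -1.45 and the helicase gene Ercc2 by -1.29. Rad23b, which stabilises the damage sensor Xpc, differed by -1.24, and its other probes by -0.36 to -1.63. The paired nuclease genes Ercc4 (-0.84) and Ercc1 (-0.69) were under 2-fold. The helicase gene Ercc3 was 0.35 higher in granulocytes, and without scaling this turned to -0.52.

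The Fanconi anaemia genes were all higher in monocytes, but mostly by less than 4-fold: 8 of 8 were below 0, 6 of them past 2-fold and 1 past 4-fold, or 6 past 4-fold without scaling. The median was -1.34. Fancl, the ubiquitin ligase of the core complex, was at -0.22 in granulocytes and 2.23 in monocytes (5.47-fold), and its other probe gave -2.28. Fancd2, the protein it marks at a crosslink, was at -0.71 and 1.15 (3.65-fold). Its other measured probe gave -0.71 as the difference. On the probes used, the core complex genes Fancc (-1.76), Fanca (-1.45), Fancg (-1.23), Fancb (-1.16) and Fance (-0.97) lay between Fancl and Fancm. Another probe of Fancg gave -1.34. A further Fancg probe was not above background in granulocytes and gave at least 6.55-fold higher in monocytes. Fancm, the translocase that anchors the complex to DNA, differed by -0.56 on the probe used and by -2.34 on another, so its size depends on the probe.

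End joining was mixed. Of 5 genes, 2 passed 4-fold towards monocytes and 1 passed 2-fold towards granulocytes, and the median was -0.33. With normexp correction 0 of 5 passed 4-fold and the median turned to 0.07. Prkdc, the catalytic subunit of DNA-dependent protein kinase, was at -2.74 in granulocytes and -0.31 in monocytes (5.40-fold). Xrcc6, a subunit of the Ku ring that grips broken ends, was at -1.58 and 0.82 (5.28-fold), whereas the other Ku subunit gene, Xrcc5, was at -2.51 and -2.18, a difference of -0.33. With normexp correction Prkdc was 2.93-fold and Xrcc6 3.85-fold higher in monocytes, and the Xrcc5 difference was 0.07. The subunits of Ku thus differed unequally on these probes.

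The ligation step lay on the other side. Lig4, the ligase that seals the joined ends, was at 0.09 in granulocytes and -1.80 in monocytes, a difference of 1.89 (3.71-fold higher in granulocytes), and its other probe gave 1.47. This was the largest difference towards granulocytes among the 57 members above background. Xrcc4, which binds and stabilises Lig4, was at 1.32 and 0.83, a difference of 0.49, with 0.50 on its other probe. Without scaling the Xrcc4 difference was -0.38, while Lig4 stayed above 0 under every alternative.

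Among checkpoint genes, 3 of 6 above background passed 4-fold towards monocytes, and the median was -2.04. With normexp correction 0 of 6 did, and the median was -1.24. Atm, the kinase that answers double-strand breaks, was at -1.62 in monocytes and not well above background in granulocytes (-5.71), which makes it at least 11.7-fold higher in monocytes by this scale and background setting. Its probe in 10 spots gave at least 5.21-fold. Chek1, the kinase that holds replication, was at -3.31 and -0.63 (6.43-fold), with -2.66 on its other probe. Chek2, a kinase that Atm switches on, was at -3.15 and -0.73 (5.38-fold). The other probe of Chek2 was not above background in granulocytes and gave at least 1.92-fold. All 3 kinase genes were higher in monocytes. With normexp correction the values were at least 2.43-fold for Atm (again a bound), 3.01-fold for Chek1 and 2.49-fold for Chek2.

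Of the clamp that marks damaged DNA, the subunits that are members were split. Its subunit gene Rad1 differed by -1.65, while another, Rad9, was 0.68 higher in granulocytes and Rad17, which loads the clamp, was 0.67 higher there, with 0.72 on its other probe. Rad9 and Rad17 turned to -0.19 and -0.20 without scaling. Rad9b was not above background on either array. Rad18, the ligase that marks PCNA when replication stalls, was at -2.87 in granulocytes and -0.60 in monocytes (4.83-fold), with -3.17 on its other probe, and at 2.54-fold with normexp correction.

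On the probes used, the genes of p53 and its ubiquitin ligase went the other way from the checkpoint kinases. Mdm2, which marks p53 for destruction and is itself switched on by p53, was at 3.23 in granulocytes and 1.47 in monocytes, 3.38-fold higher in granulocytes. Its probe in 10 spots gave 1.40. Trp53, the gene of p53, was at 2.48 and 1.18 on the brighter probe, 2.45-fold higher in granulocytes. Its probe in 10 spots gave -1.33 and -1.10, a difference of -0.23. The direction for Mdm2 held on both probes, and that for Trp53 did not.

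**Figure D3:**
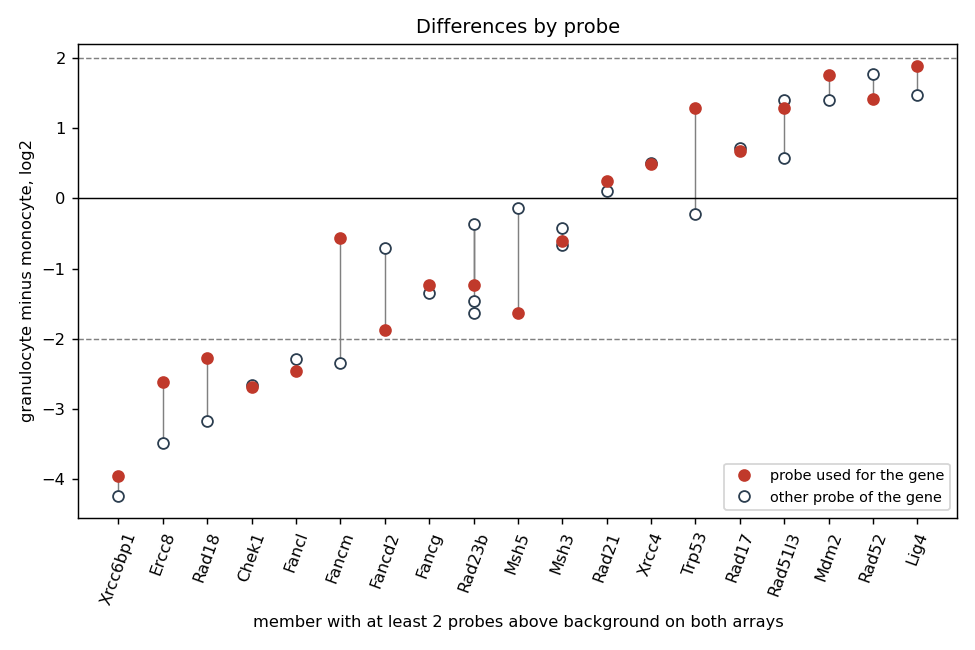
Difference between granulocytes and monocytes in log2 units for the 19 members that had 2 or more probes above background in both cell types. Filled points are the probe used for the gene and open points its other probes. The median range between probes of a gene is 0.36, and Trp53 has probes on both sides of 0.

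The 4 genes named alike differed in both directions. Xrcc6bp1, a mitochondrial metalloprotease gene, was at -2.78 in granulocytes and 1.18 in monocytes (15.5-fold). Ercc6l, a helicase gene of mitosis, was at -1.29 and 1.26 (5.86-fold). Rad54l2, a chromatin remodeller gene, was at -2.82 and -4.08, 2.40-fold higher in granulocytes, and Rad21, a subunit of cohesin, at 5.37 and 5.12, a difference of 0.25 that became -0.62 without scaling. Without these 4 genes, 22 of 53 passed 4-fold towards monocytes and the median was -1.65.

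Repeated spots show how exactly an array reads 1 RNA sample, and nothing of how mice or sorts differ. For Mdm2 the signal of the 10 spots had a lowest value of 553, a median of 607 and a highest of 668 in granulocytes, against 382, 410 and 456 in monocytes. On the level scale these were 0.82 ± 0.09 and -0.58 ± 0.08 (SD over 10 spots). After scaling the spots of the arrays did not overlap.

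The signals of all 10 Prkdc spots lay at 47.3, 50.3 and 56.1 (lowest, median, highest) in granulocytes and at 448, 501 and 540 in monocytes. Their levels were -2.74 ± 0.07 (8 spots, with 2 of 10 left out as outliers) and -0.31 ± 0.07 (10 spots). For Trp53 the signals were 122, 135 and 146 against 264, 293 and 301, and the levels -1.33 ± 0.09 and -1.10 ± 0.06. After scaling the ranges of the Trp53 spots overlapped, and those of Prkdc did not. For Atm 0 of 10 granulocyte spots and 10 of 10 monocyte spots were well above background, with signals of 2.04, 4.11 and 8.55 against 84.2, 87.7 and 99.5, and these did not overlap after scaling.

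**Figure D4:**
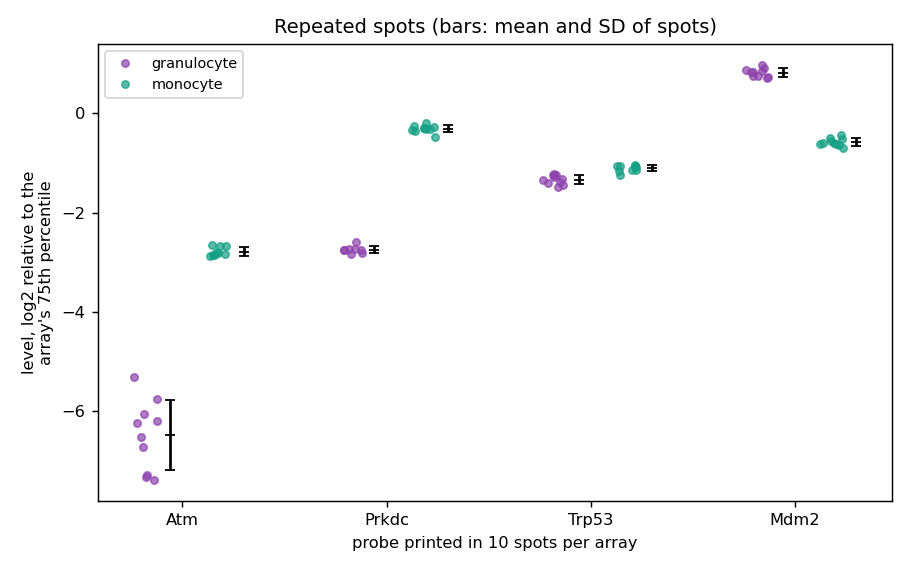
Level of each repeated spot (log2 relative to the array's 75th percentile) for the 4 member probes printed in 10 spots, purple for granulocytes and green for monocytes, with bars for the mean and SD over spots of 1 array. Mdm2 spots are higher in granulocytes, Prkdc and Atm spots are higher in monocytes, and Trp53 spots lie close together.

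Other genes of these pathways, outside the name rule, were taken from fixed lists. For double-strand break signalling and repair, 10 of 28 further genes passed 4-fold towards monocytes and 0 towards granulocytes, and the median was -1.51. The fork protection genes Timeless (-3.43) and Tipin (-3.06) were the furthest towards monocytes, and the helicase gene Wrn (1.33) and the end joining gene Nhej1 (1.39) the furthest towards granulocytes. For base excision, 6 of 19 further genes passed 4-fold towards monocytes and 1 towards granulocytes, and the median was -1.06. There, the endonuclease gene Apex1 (-3.95) and the flap nuclease gene Fen1 (-2.72) were higher in monocytes, and Aptx was higher in granulocytes (1.11).

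Further genes of nucleotide excision and mismatch repair lay nearer to 0, with a median of -0.12 over 13 genes, 0 of them at 4-fold either way. Pms2, a mismatch repair gene, was lower in granulocytes (-1.96), as was Gtf2h4 (-1.52), and the damage sensor genes Xpc (1.75) and Xpa (0.38) were higher. Scaling added 0.87 to every difference, more than the value of Xpa, so the direction of Xpa came with the scaling. For translesion synthesis and direct reversal, 2 of 16 genes passed 4-fold towards monocytes and 1 towards granulocytes, and the median was -0.11. Mad2l2 (-2.74) and Ube2t (-1.81) were lower in granulocytes, and Ube2b, the partner of Rad18, was higher (2.09), as was Wdr48 (0.97).

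The targets of p53 showed no common direction: of 21 above background, 4 passed 4-fold towards monocytes and 4 towards granulocytes, and the median was -0.33. The cell cycle inhibitor gene Cdkn1a (-3.46) and the nuclease gene Aen (-3.71) were lower in granulocytes. Trp53inp1 (4.01) and Sesn2 (3.25), genes of the stress response, were higher there. Trp53 and Mdm2 were higher in granulocytes on the probes used, so their direction was that of some targets and not of others.

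Cell cycle genes differed in the same direction as most repair genes. In the list for S phase and replication, 21 of 25 genes passed 4-fold towards monocytes and 0 towards granulocytes, and the median was -3.04. They ranged from Gins1 (-3.95) and the helicase subunit gene Mcm3 (-3.54) to Prim2 (-1.67) and Cdc45 (-0.98). Of 20 mitosis genes, 2 passed 4-fold and 17 passed 2-fold towards monocytes, and the median was -1.35. They ran from Bub1b (-2.22) and Aurkb (-2.15) to Cdc20 (-0.82) and Ube2c (-0.66). All 25 S phase genes and all 20 mitosis genes were above background on both arrays, granulocytes included. Median levels were 0.59 in granulocytes and 3.29 in monocytes for S phase genes, and 2.03 and 2.95 for mitosis genes. Progenitor markers had a median of -2.20, with median levels of 0.35 in granulocytes and 2.47 in monocytes. All 10 were above background on both arrays, and Elane (-3.67) and Prtn3 (-3.56) were lower in granulocytes while Kit (1.35) and Gfi1 (0.55) were higher. The Gfi1 value is less than the 0.87 that scaling added to every difference. T and NK cell markers had a median of -3.29, with median levels of -3.59 and 0.34, and Klrd1 (-4.53) and Lck (-3.98) were lower in granulocytes while Cd3d (1.76) was higher. Of 10 dendritic cell markers, 5 passed 4-fold towards monocytes and 1 towards granulocytes, with a median of -1.89 and median levels of -1.32 and -1.23. The part of replicating cells, progenitors, dendritic cells or T and NK cells in the differences of the repair genes was not tested.

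**Figure D5:**
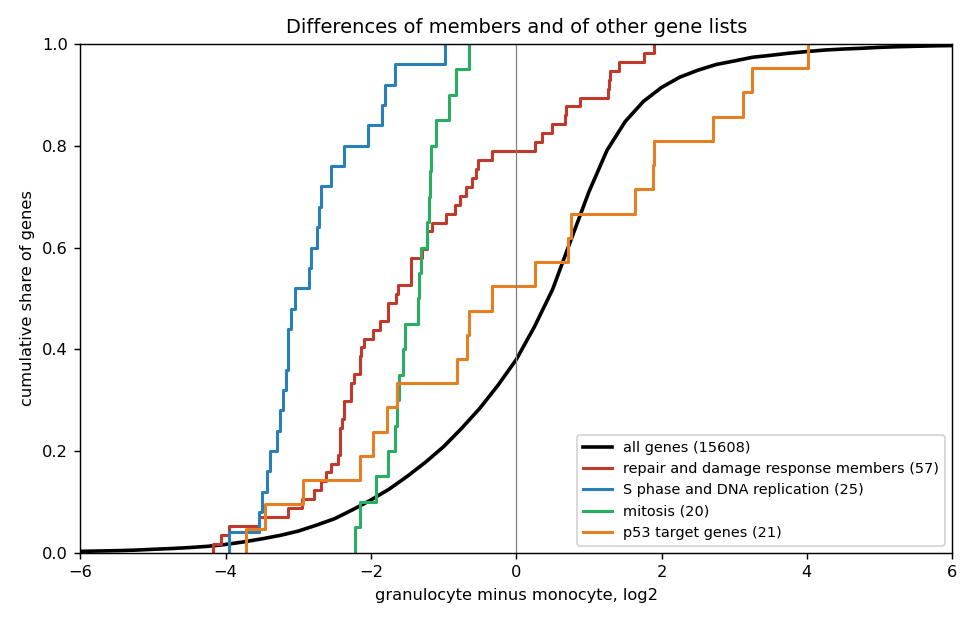
Cumulative share of genes by difference between granulocytes and monocytes (log2 units) for all 15608 genes, the 57 members above background, 25 S phase, 20 mitosis and 21 p53 target genes. The curves of the members, the S phase genes and the mitosis genes lie left of that of all genes, and the p53 targets spread to both sides.

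Promoters of members were read from RefSeq (build GRCm38.p6), from 250 bases before to 50 after the start of the gene, and 44 of the 59 members had an entry. They were searched on both strands for the 8-letter forms TTTCCCGC, TTTGGCGC, TTTCGCGC and TTTGCCGC, which can overlap each other and are written for E2F, the factor family of replication genes. At least 1 form was present in 8 of 44 member promoters (18.2%) and in 575 of 17492 protein-coding promoters (3.29%). Among members at least 4-fold higher in monocytes, 4 of 16 held 1: Brca2, Chek2, Msh6 and Xrcc6. Among members higher in monocytes by less than 4-fold, 4 of 19 did: Rad51c, Msh5, Fancg and Msh3. Among members higher in granulocytes, 0 of 7 did, which says only that these letters are not in these windows. CCAAT, on either strand, was in 27 of 44 member promoters (61.4%) and in 42.3% of protein-coding promoters. A match is a description and not a site of binding.

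The promoters of the 4 genes with a match and a difference of at least 4-fold are printed to show where the match lies, with the match in capitals. All are on the plus strand of GRCm38.p6: Brca2 at chr5:150522371-150522670, Chek2 at chr5:110839733-110840032, Msh6 at chr17:87974800-87975099 and Xrcc6 at chr15:82016119-82016418. In Brca2, Chek2 and Xrcc6 the match is to TTTCCCGC on the opposite strand, so the printed strand reads GCGGGAAA, and it starts at -168, -152 and -46 from the start of the gene. In Msh6 it is TTTCCCGC on the printed strand, at 16.
Brca2: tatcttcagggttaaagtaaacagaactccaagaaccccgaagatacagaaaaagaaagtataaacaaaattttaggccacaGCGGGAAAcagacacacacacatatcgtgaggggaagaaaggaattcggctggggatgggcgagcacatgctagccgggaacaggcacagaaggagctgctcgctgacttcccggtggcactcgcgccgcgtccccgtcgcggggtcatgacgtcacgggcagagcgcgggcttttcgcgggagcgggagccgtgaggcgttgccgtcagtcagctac
Chek2: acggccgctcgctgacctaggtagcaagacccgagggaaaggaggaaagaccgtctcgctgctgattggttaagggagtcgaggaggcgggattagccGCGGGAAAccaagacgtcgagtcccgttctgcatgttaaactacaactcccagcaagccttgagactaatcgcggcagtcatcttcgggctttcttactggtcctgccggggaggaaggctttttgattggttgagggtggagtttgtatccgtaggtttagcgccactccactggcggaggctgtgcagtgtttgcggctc
Msh6: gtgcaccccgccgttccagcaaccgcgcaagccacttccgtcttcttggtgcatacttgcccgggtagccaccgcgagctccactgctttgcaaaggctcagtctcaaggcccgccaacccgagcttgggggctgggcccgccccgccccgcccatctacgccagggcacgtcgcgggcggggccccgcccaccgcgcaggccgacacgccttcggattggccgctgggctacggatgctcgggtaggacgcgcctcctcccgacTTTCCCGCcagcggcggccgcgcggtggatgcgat
Xrcc6: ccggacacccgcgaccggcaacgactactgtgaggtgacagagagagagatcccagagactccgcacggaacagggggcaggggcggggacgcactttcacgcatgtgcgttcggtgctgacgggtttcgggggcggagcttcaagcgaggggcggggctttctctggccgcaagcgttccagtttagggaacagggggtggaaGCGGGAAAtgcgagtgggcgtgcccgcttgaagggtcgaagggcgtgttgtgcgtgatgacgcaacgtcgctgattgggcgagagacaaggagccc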

How the data were processed

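The members, gene lists and comparisons were chosen with earlier results of these data known. Per the labels, 0.5 µg of total RNA was amplified and labelled with Cy3. Per the file headers, Agilent Feature Extraction 10.5.1.1 gave the deposited intensity of each spot, background-subtracted and not normalised between arrays. The authors' value table was on a log2 scale and equalled log2 of the processed signal plus 1 constant per array (-0.24 and -0.92), within 0.01 for 100% of 40844 probes with a single spot. How these constants were set is not stated in the labels or headers.

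Control and outlier spots were left out (143 and 103 gene spots were outliers). Log2 of the processed signal minus the array's 75th percentile (339.4 for granulocytes, 620.9 for monocytes) was averaged over the spots of a probe. A gene was represented by its probe above background on most arrays, then the brightest. Probes were named through RefSeq accessions (24049), current symbols (6219) or older symbols (2378); 8033 stayed unnamed and 410 listed several genes. Where only 1 array detected a gene, its fold is a bound ("at least"), taken from the detected level to a floor, -5.16 for granulocytes and -6.04 for monocytes (the lowest level of any detected probe), or to the undetected probe's own level if that was higher. The median SD over repeated spots was 0.11 and 0.09, and between probes of a gene 0.23 (5400 genes). The calculation was tested on simulated data, with changes set only in genes that were bright on the monocyte array. Both simulated arrays had the same detected spots, so the bounds were not tested.

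Named with values on both arrays are members at least 4-fold different, all at least 2-fold higher in granulocytes, a fixed set of central genes, those whose probes disagree and those not above background on 1 array; of other lists, the 2 furthest each way among those detected on both arrays whose brighter level reached the 75th percentile. Alternatives were no scaling, the median over probes detected on both, quantile and spike-in scaling (9 controls), normexp correction with limma 3.58.1 (offset 50), the authors' table, 2 filters, other probe rules and other folds. Python 3.11.15, pandas 2.3.3, numpy 2.4.6 and R 4.3.3 were used. A few genes that this rule selects are left out of the text and of the plots that label genes, though counts and medians include them.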

Additional observations from a re-analysis of the deposited data

How the results depend on the processing

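No paired analysis was possible because each cell type has 1 array. The 24 members at least 4-fold higher in monocytes kept their sign in all 239 values under the alternatives, and the median of all members and those of the 7 other lists kept theirs, while that of all genes turned without scaling and with spike-in scaling, and that of the 5 end joining genes turned with normexp correction (0.07). The count of these members was 37 without scaling, 12 with normexp correction, 37 at 2-fold and 5 at 8-fold, and 6 members were at least 2-fold higher in granulocytes (1 without scaling, 2 with spike-in scaling). Under the other scalings, filters and probe rules it was 23 to 30. Without scaling the medians were -2.52 for the members, -1.93 for base excision, -2.38 for double-strand break, -0.99 for nucleotide excision and mismatch, -0.99 for translesion, -1.20 for p53 target, -3.91 for S phase and -2.22 for mitosis genes. With spike-in scaling they were -2.20, -1.60, -2.05, -0.67, -0.66, -0.88, -3.59 and -1.90 in that order. With normexp correction they were -0.98 for members, -0.81 for base excision, -1.08 for double-strand break and -2.81 for S phase genes. Quantile normalisation gave -1.77 for double-strand break and -1.74 for mitosis genes. The p53 target median was -0.034 over genes above background on both arrays, -0.034 with no filter and -0.073 with the mean over probes. A change of scale moves all genes by 1 amount under no scaling and spike-in scaling. Normexp correction added an offset of 50 to every signal, and such an offset makes folds between dim signals smaller. Its share in the changes with normexp correction, and the cause of the other changes, were not tested. Of single members, 6 changed sign somewhere, in 10 values: Ercc3, Rad17, Rad21, Rad9 and Xrcc4 without scaling, Ercc3 (-0.20), Rad21 (-0.29) and Xrcc4 (-0.05) with spike-in scaling, Rad21 (-0.34) with quantile normalisation and Xrcc5 with normexp correction. Leaving out the 4 genes named alike was chosen after the data were seen. Signal over background limits dim probes: 17 of the 107 member probes gave a bound and 11 none.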
